A study of Caenorhabditis elegans with 45 samples.

Results

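The cytochrome P450 genes described here are all genes of the deposited expression table whose WormBase symbol is cyp- followed by a family number and a letter. The rule took 73 of 18589 genes, all protein coding, in 24 subfamilies, and it left out the cyclophilin (cyn-) genes and daf-9, a P450 gene with another kind of symbol. The same rule finds 74 genes in the annotation, and cyp-33B1 is the gene that the table does not list. RNA was measured in whole day 1 adult hermaphrodites of 5 *Caenorhabditis elegans* strains: the laboratory reference strain N2 and the wild strains JU1088, EG4348, CB4856 and QX1211. Each strain was fed HT115 *E. coli* that carried the empty vector pL4440 (CTR) or made double-stranded RNA against the maternal genes par-1 (PAR1) or pos-1 (POS1), with 3 libraries in each of the 15 groups. All animals of all groups therefore ate HT115 bacteria and were collected at the first egg laying, each library came from 2 pooled plates, and QX1211 had been kept at a lower temperature than the other strains before the experiment.

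Cytochrome P450s are heme monooxygenases that insert an oxygen atom into lipophilic molecules with electrons from a reductase, which is emb-8 in *C. elegans*. In the nematode, many of them are expressed in the intestine and are induced by foreign chemicals, others make eicosanoids from polyunsaturated fatty acids, a few act in the germ line to make lipids of the eggshell, and daf-9 makes dafachronic acid, the ligand of the nuclear receptor DAF-12. The family has grown by tandem duplication: 40 of the 73 genes lie on chromosome V, and 45 lie in 11 runs in which neighbouring P450 genes are less than 20 kb apart. The longest run holds 10 genes, from cyp-35A5 to cyp-34A10 (chromosome V, 3936326 to 3972991, assembly WBcel235). Copies of a run can be near-identical, and so can the cyp-31A genes, which lie apart on chromosome IV. Reads may be split between copies, and the levels of single genes of the cyp-31A, cyp-33C, cyp-34A and cyp-35B groups are uncertain to that extent. cyp-44A1, cyp-33E2, cyp-33D3 and cyp-14A4 overlap another annotated gene on the same strand, which leaves their levels uncertain too.

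The libraries held 4268881 to 17864647 estimated reads assigned to genes (median 7478529). Levels below are normalized counts, which the authors scaled for depth and transcript length and which compare libraries for 1 gene, unless TPM are named, which are scaled by transcript length and library and also compare genes. The pos-1 level under pos-1 RNAi was 8.25% of the control mean in JU1088, 16.7% in N2, 42.3% in EG4348, 91.9% in QX1211 and 96.3% in CB4856, whereas that of par-1 under par-1 RNAi was 88.2 to 119% and overlapped with the controls in all 5 strains, so that the par-1 level gives no check of the PAR1 labels, nor pos-1 of the POS1 labels of CB4856. The 8 intestine markers summed to 1586 to 3619 TPM over the 45 libraries. Between strains, 4 of 8 intestine, 2 of 7 adult yolk and cuticle, 3 of 4 larval cuticle, 8 of 8 sperm and 3 of 7 early embryo markers were called in the controls, and no RNAi comparison called more than 2, 2, 1, 0 and 4 of them. Replicates are separate libraries of separate plates, and p-values measure the spread between them. Fewer cells of a type and less RNA per cell cannot be told apart in whole animals.

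P450 RNA was concentrated in a few genes. In the 15 control libraries, the 73 genes summed to 647 to 1057 TPM, and the 5 genes with the highest medians made up 42.6 to 58.1% of it (median 56.4%). They were cyp-31A5 with a median of 106 TPM (range 64.0 to 154), cyp-31A2 with 105 TPM (range 80.4 to 193), cyp-31A3 with 66.8 TPM (range 57.2 to 83.9), cyp-35A2 with 65.8 TPM (range 10.4 to 143) and cyp-33A1 with 57.7 TPM (range 42.6 to 94.6). cyp-31A2 and cyp-31A3 act in the germ line in making lipids of the eggshell. At the other end, 28 genes had a median under 1 TPM, and 14 had 10 TPM or more. The ranges of neighbours in this order overlapped. In normalized counts, 48 of the 73 genes had a mean of 10 or more over all libraries.

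Which P450 genes differed between strains on empty vector? With a single test of strain in the 15 control libraries (edgeR quasi-likelihood F test, Benjamini-Hochberg adjustment over all genes tested, called at an adjusted p below 0.1), 31 of 69 P450 genes with enough reads were called, or 44.9%, beside 35.1% of all 16490 genes tested. The remaining 4 genes (cyp-13A11, cyp-25A6, cyp-33C1 and cyp-34A1) had too few reads in the controls. Of the 31, cyp-34A6 and cyp-33D3 had a strain mean of 0 and therefore no ratio. Among the others, 22 had a strain mean more than 2 times that of another strain and 15 more than 4 times, with a median ratio of 4.04. The highest mean was in QX1211 for 12 of them, in N2 for 7, in CB4856 for 6, and in JU1088 and EG4348 for 3 each. The lowest was in EG4348 for 10, in JU1088 for 9, in QX1211 for 5, in CB4856 for 4 and in N2 for 3. cyp-33D3, with a mean of 0 in both JU1088 and EG4348, was counted for JU1088. These counts by fold and by strain were not made for all genes called. Of 11253 genes with a mean of 10 or more, the QX1211 controls lay above all others in 5.92% and below in 7.17%. Those shares were the largest of the 5 strains. The call held in 19 of the 31 without each library in turn and with each other method that tested the gene. The 19 included all genes of the cyp-31A and cyp-35B groups, cyp-29A3, cyp-29A4, cyp-34A8, cyp-35A5 and 4 cyp-33C genes.

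By pairs with N2, the number of P450 genes called and their share varied among the wild strains. EG4348 had 19 called (6 higher and 13 lower than N2), or 27.5%, beside 13.4% of all genes. QX1211, whose background share was the largest, had 14 called (8 higher, 6 lower), or 20.3%, beside 21.1%. With the replicate number as a block it had 11, beside 20.5%, and the block ended the calls of cyp-29A2, cyp-35A1 and cyp-44A1. CB4856 had 9 called (6 higher, 3 lower), or 13%, beside 9.87%, and JU1088 had 9 (3 higher, 6 lower), or 13%, beside 4.68%. The median log2 difference over the 69 genes was -0.05 in QX1211, -0.14 in CB4856, -0.27 in JU1088 and -0.34 in EG4348, where all genes had 0.00, 0.01, -0.02 and -0.03. The counts against N2 rested in part on single libraries. No call of JU1088 held without each library in turn, and its count was 0 without JU1088 CTR replicate 3, beside 2.71% of all genes. Without N2 CTR replicate 1, cyp-13A7 lost its call between strains, and its difference from N2 turned from lower to higher in EG4348 and CB4856. Between wild strains, QX1211 had 20 genes called against EG4348 (15 higher, 5 lower), beside 29.5% of all genes, 17 against JU1088 (11 higher, 6 lower), beside 21%, and 15 against CB4856 (9 higher, 6 lower), beside 19.5%. CB4856 had 13 against EG4348 (9 higher, 4 lower), beside 13.6%, and 4 against JU1088, all higher, beside 6.45%. EG4348 and JU1088 differed in 10 genes, 5 in each direction, beside 6.88%.

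**Figure D1:**
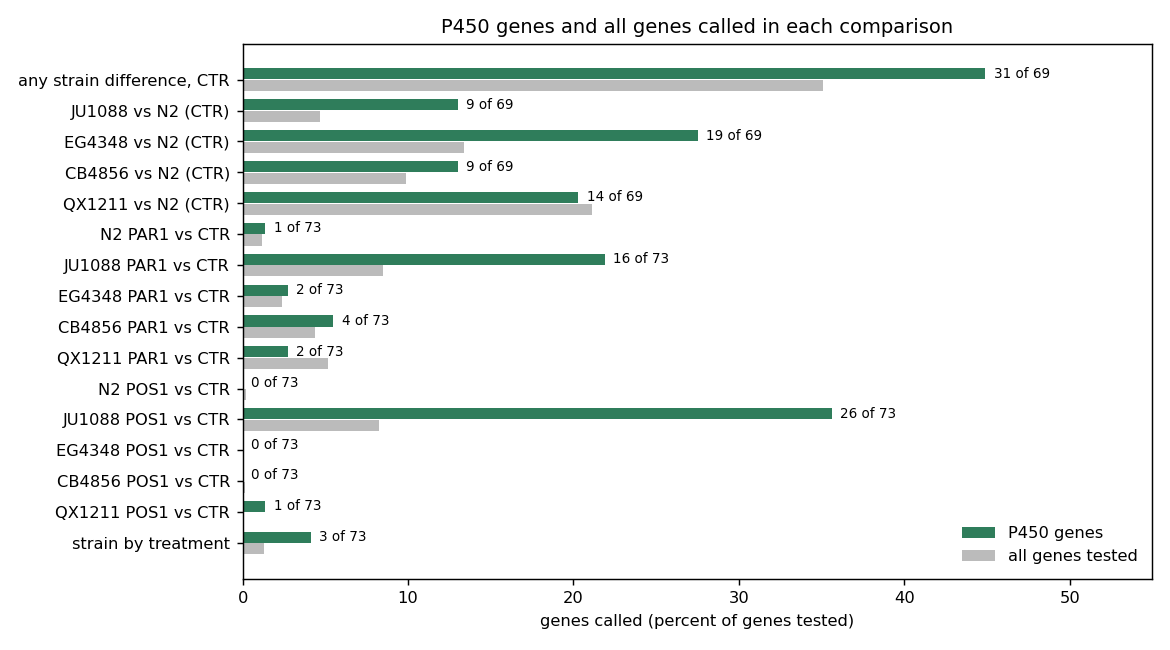
Percent of genes called in each comparison, for the P450 genes (green) and all genes tested (grey), on a linear axis from 0. The numbers beside the green bars are P450 genes called of those tested, and the longest green bars are those of the strain test, with 31 of 69, and of JU1088 under pos-1 RNAi, with 26 of 73.

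The eggshell genes were abundant in every strain and moderately different. cyp-31A2 (WBGene00010354, chromosome IV, 11403961 to 11406091) had 1918, 1651 and 1560.0 in CB4856 and 873, 979 and 927 in N2. JU1088 had 968, 840.3 and 783, EG4348 1045, 1029 and 1196 and QX1211 1159, 1012 and 854. All CB4856 libraries lay above the other 12, and the log2 difference from N2 was 0.88 ± 0.11 (adjusted p = 6.32e-05). The level of cyp-31A3 (chromosome IV, 4761049 to 4762885) did not follow: it was 575 ± 15.8 (SD, n = 3) in CB4856, 613 ± 13.5 in N2, 608 ± 60.4 in JU1088, 707 ± 39.4 in QX1211 and 738 ± 65.7 in EG4348. Its call between strains (adjusted p = 0.0116) came with a higher level in EG4348 than in N2, by 0.28 ± 0.08 (adjusted p = 0.0492) on the log2 scale. Summed over both genes, between which reads may be split, CB4856 had 2285 ± 180.4 and N2 1539 ± 66.2, so the CB4856 excess over N2 was also in the sum.

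cyp-31A5 (chromosome IV, 13401289 to 13403842), the third gene of the group, was lowest in QX1211 and highest in EG4348. QX1211 had 428, 327 and 296, below the other 12 control libraries, and EG4348 had 609, 595 and 726, above the other 12. N2 had 486, 481 and 541, and the log2 differences from it were -0.51 ± 0.12 (adjusted p = 0.00811) in QX1211 and 0.36 ± 0.12 (adjusted p = 0.0664) in EG4348. The cyp-31A order of strains thus differed from gene to gene. Summed over all 3 genes, CB4856 had 2778 ± 196.6 and N2 2042 ± 71.1 (SD, n = 3). In that sum CB4856 overlapped with EG4348: EG4348 CTR replicate 3 had 2709, above the CB4856 libraries with 2705 and 2628.

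The run of cyp-35 and cyp-34A genes on chromosome V had 8 of its 10 genes called, beside 44.9% of the P450 genes and 35.1% of all genes tested. Of the 8, cyp-34A5 (adjusted p = 0.0851) and cyp-34A7 (adjusted p = 0.0887) were not among the 19 calls that held throughout. The genes of the run are neighbouring copies between which reads may be split. cyp-34A8 (WBGene00015043, chromosome V, 3964797 to 3967823) had the smallest p of all P450 genes (adjusted p = 5.01e-09). Its controls were 452, 337 and 393 in CB4856, 84.1, 118 and 111 in N2 and 45.7, 39.9 and 52.7 in QX1211. JU1088 had 148, 129 and 130.4 and EG4348 112, 124 and 119. CB4856 lay above and QX1211 below all other strains without overlap. The log2 difference from N2 was 1.90 ± 0.14 (adjusted p = 2.22e-07) in CB4856 and -1.19 ± 0.17 (adjusted p = 1.16e-04) in QX1211. Both separations were present again in the RNAi libraries, where the 6 of CB4856 lay above and the 6 of QX1211 below the 24 of the other strains.

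The 3 cyp-35B genes, which neighbour each other in that run, differed in opposite directions in QX1211. cyp-35B1 (WBGene00019472, chromosome V, 3939032 to 3941237), known as a target of the insulin-signalling factor DAF-16, was nearly absent there, at 9.63, 1.74 and 10.4. Its levels were 378, 166 and 166 in N2, 217, 239 and 198 in JU1088, 201, 201 and 270.2 in EG4348 and 234.6, 298 and 328 in CB4856, and the log2 difference of QX1211 from N2 was -4.85 ± 0.41 (adjusted p = 3.99e-07). The highest of the 9 QX1211 libraries, RNAi included, had 10.8, and the lowest of the other strains was EG4348 POS1 replicate 2 with 132.

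cyp-35B3 (chromosome V, 3945353 to 3947044) was highest in the strain that lacked most of cyp-35B1. QX1211 had 415, 385 and 292, above the 12 others, and EG4348 had 41.8, 44.2 and 40.2, below the 12 others. N2 had 107, 72.3 and 119.6, JU1088 47.7, 61.3 and 48.6 and CB4856 209, 119 and 155. Against N2 the log2 difference was 1.87 ± 0.21 (adjusted p = 1.19e-05) in QX1211 and -1.22 ± 0.24 (adjusted p = 0.00379) in EG4348. The EG4348 separation was there in the RNAi libraries too, and that of QX1211 was not, because JU1088 POS1 replicate 2 reached 204 and the lowest QX1211 RNAi library had 186.

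cyp-35B2 (chromosome V, 3942160 to 3944523) was called between strains (adjusted p = 0.00108), with 1169.8, 449.9 and 509 in N2 and 271, 181 and 248 in CB4856. QX1211 had 622, 564 and 484, JU1088 340.4, 324 and 318 and EG4348 305, 290.3 and 331. CB4856 lay below the other strains, and a single N2 library stood far above the other 2. The sum of the 3 cyp-35B genes was 928 ± 132 in QX1211, 1046 ± 529.7 in N2, 681 ± 72.8 in CB4856, 598 ± 30.3 in JU1088 and 575 ± 58.0 in EG4348 (SD, n = 3). In the sum, QX1211 therefore stood within the N2 range and not below it.

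**Figure D2:**
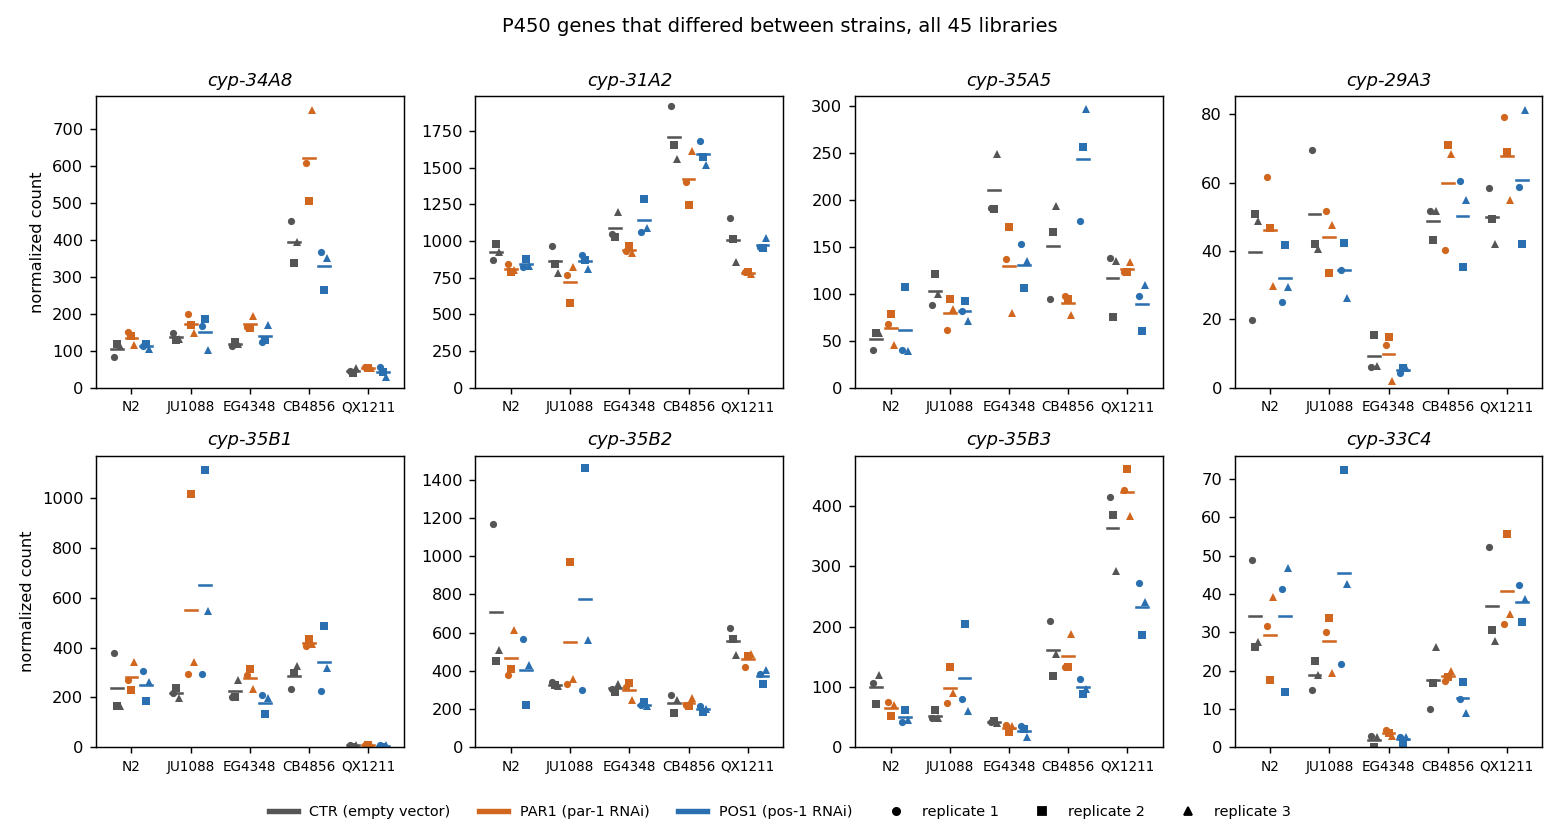
Normalized counts of 8 P450 genes in all 45 libraries, by strain (x axis) and treatment (colour), with a symbol for each replicate number and a bar for the mean of 3, on linear axes from 0. cyp-34A8 and cyp-31A2 are highest in CB4856, cyp-29A3 and cyp-33C4 lowest in EG4348, and cyp-35B1 is near 0 in all 9 QX1211 libraries.

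Several genes in another stretch of chromosome V were low in EG4348. cyp-33C4 (chromosome V, 2236140 to 2237999) had 3.01, 0 and 2.79 there and 48.8, 26.2 and 27.4 in N2, a log2 difference of -4.05 ± 0.59 (adjusted p = 2.84e-04). The next genes of the run, cyp-33C3 and cyp-33C5, had 2.30, 7.94 and 2.85 and 2.14, 1.29 and 2.46 in EG4348, against 31.2, 27.5 and 24.5 and 23.9, 15.4 and 13.2 in N2. In all 3 genes, the EG4348 controls lay below the 12 others, and so did the 6 RNAi libraries below the 24 others. cyp-32B1, in the adjoining run (chromosome V, 2197997 to 2201415), had 1.54, 1.76 and 1.49 in EG4348 and 61.6, 11.1 and 8.11 in N2 at a log2 difference of -3.94 ± 0.88 (adjusted p = 0.00949). The stretch was not low throughout: cyp-33C7, also in the run, had 23.9, 28.5 and 35.6 in EG4348 and 65.5, 29.0 and 24.2 in N2 and was not called (adjusted p = 0.192). The cyp-33C genes, cyp-32B1 and cyp-29A4 were chosen after their values were seen. Of the 48 P450 genes with a mean of 10 or more, 7 (14.6%) had the EG4348 controls below the 12 others, beside 3.84% of all genes at that level, and 5 of the 7 had the RNAi libraries below as well, as had 12% of the 432 such genes of all. The 7 early embryo markers summed to 4.25 to 8.44 TPM in the EG4348 controls and 10.2 to 22.4 TPM in the other controls, without overlap. The 8 sperm markers had 4.87 to 9.67 TPM and 7.21 to 144 TPM, and the 4 larval cuticle markers 0.434 to 0.982 TPM and 0.459 to 6.10 TPM. The part of these markers in the P450 values was not tested.

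cyp-29A3 (chromosome V, 59239 to 63633), which acts in making eicosanoids from eicosapentaenoic acid, had 6.16, 15.5 and 6.31 in EG4348. It had 19.9, 50.7 and 48.7 in N2, 69.6, 42.1 and 40.6 in JU1088, 51.6, 43.1 and 51.7 in CB4856 and 58.5, 49.3 and 42.0 in QX1211. EG4348 lay below all of these, with a log2 difference from N2 of -2.03 ± 0.40 (adjusted p = 0.00411), and below them again in the RNAi libraries. cyp-33E2, a pharyngeal P450 with a similar role, had 46.9, 55.4 and 38.1 in N2, 39.3, 43.8 and 47.7 in EG4348 and 36.2, 35.2 and 45.6 in QX1211, which overlapped. It had 30.2, 23.6 and 28.8 in CB4856 and 32.4, 19.7 and 26.4 in JU1088, with log2 differences from N2 of -0.78 ± 0.21 (adjusted p = 0.0354) and -0.85 ± 0.23 (adjusted p = 0.0543). The pair calls were lost without CB4856 CTR replicate 2 or N2 CTR replicate 2 in CB4856, and without any of 4 libraries in JU1088 (JU1088 CTR replicates 2 and 3, N2 CTR replicates 1 and 2). cyp-29A2 was called (adjusted p = 0.0476), with control libraries of 65.3 to 154 (median 95.8). cyp-29A4, whose role is not given here, had 56.3, 40.2 and 31.9 in QX1211 and 5.18, 11.0 and 7.96 in N2 with a log2 difference of 2.39 ± 0.37 (adjusted p = 2.58e-04).

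The cyp-35A genes are induced by foreign chemicals and take part in fat storage, and 4 of the 5 were called between strains. cyp-35A5 (chromosome V, 3936326 to 3938597) had 40.4, 57.8 and 58.2 in N2, below every other control library, and 192, 190.2 and 249 in EG4348. CB4856 had 94.8, 165 and 193, QX1211 139, 75.7 and 135 and JU1088 88.4, 121 and 99.4. All 4 wild strains were called higher than N2, the largest difference being 2.01 ± 0.27 (adjusted p = 1.24e-04) and the smallest 0.98 ± 0.28 (adjusted p = 0.0782). In the RNAi libraries, N2 overlapped with the other strains.

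The other cyp-35A genes varied more within groups. cyp-35A3 had 4.74, 89.8 and 64.5 in CB4856 and 860.1, 105 and 402 in QX1211, and its call (adjusted p = 0.0393) was lost without QX1211 CTR replicate 1 (adjusted p = 0.12). cyp-35A2, the most abundant of them, had 1048, 861 and 509 in N2, 80.0, 436 and 451 in CB4856 and 481, 131 and 298 in QX1211 (adjusted p = 0.0777), a call that was lost without 8 of the 15 libraries in turn (each JU1088 library, N2 replicates 1 and 2, QX1211 replicates 2 and 3, EG4348 replicate 2). cyp-35A1 had control libraries of 0.944 to 26.2 (median 6.07), was called at adjusted p = 0.0914, and lost the call without 11 of the 15. cyp-35A4, at 1.59 to 25.5 (median 11.8), was not called (adjusted p = 0.687). Within a strain, the cyp-35A libraries thus spread several-fold, and CB4856 CTR replicate 1 was the lowest of all 15 controls for cyp-35A1, cyp-35A2, cyp-35A3 and cyp-35C1.

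cyp-44A1, a P450 of the mitochondrial type, had 401, 161 and 256 in QX1211 and 124, 116 and 174 in N2 with a log2 difference of 1.00 ± 0.36 (adjusted p = 0.0752). With the replicate number as a block the difference was 0.93 (adjusted p = 0.101), and the call of the pair was lost without any of 4 libraries (N2 replicates 1 and 2, QX1211 replicates 1 and 3). The call over all strains was lost without QX1211 CTR replicate 1 or 3. cyp-14A1 was lowest in N2, at 19.6, 22.5 and 22.4, and called higher in all 4 wild strains, from 0.63 ± 0.22 (adjusted p = 0.0966) in EG4348 to 0.91 ± 0.23 (adjusted p = 0.0381) in JU1088 on the log2 scale. The EG4348 call was lost without each of the 6 libraries in turn (adjusted p of up to 0.251) and the JU1088 call without JU1088 CTR replicate 3 or N2 CTR replicate 1, while those of CB4856 and QX1211 held. cyp-36A1, which acts in egg-laying behaviour downstream of the oxygen sensor EGL-9, had control libraries of 23.9 to 72.8 (median 51.8) and was not called (adjusted p = 0.431). cyp-35D1, which metabolizes the anthelmintic thiabendazole, had 0 to 6.95 (median 2.97) (adjusted p = 0.647). cyp-13A12, which acts in the response to reoxygenation, had 0 to 19.0 (median 4.88) (adjusted p = 0.355). cyp-35C1, induced by foreign chemicals, had 87.1 to 423 (median 239) (adjusted p = 0.578), and cyp-33A1, 1 of the 5 most abundant, had 475 to 999.6 (median 621) (adjusted p = 0.518).

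A few P450 genes had no read at all in a strain, and the share of all genes without a read was not computed. cyp-34A6 had 0 estimated reads in the 9 QX1211 libraries, which held 65050154 reads, and the limit that a count of 0 allows (3 reads over the 9 libraries) is 0.0461 CPM (reads scaled by the library totals) for counting error only. Its control levels elsewhere were 12.0, 12.7 and 9.74 in JU1088, 7.90, 5.25 and 15.5 in CB4856, 7.35, 3.97 and 7.66 in EG4348 and 1.99, 3.59 and 2.71 in N2. cyp-33D3 had 0 reads in JU1088 and in EG4348, and 5.06, 3.80 and 13.8 in the QX1211 controls. cyp-25A6 had 0 in N2, JU1088 and EG4348, cyp-33C1 in EG4348 and cyp-33C11 in QX1211. Their highest totals over the 9 libraries of a strain were 19 reads for cyp-25A6 in QX1211, 4 for cyp-33C1 in QX1211 and 12 for cyp-33C11 in N2. Over the 9 libraries of a strain, the highest mean of these 5 genes was 9.56, that of cyp-34A6 in CB4856. Per the authors, most genes that they found off in a wild strain were missing from its genome or had low DNA coverage there. Whether that holds for these genes was not tested. Nor was it tested for the low levels of cyp-35B1 in QX1211 and of cyp-33C3, cyp-33C4, cyp-33C5 and cyp-32B1 in EG4348.

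What changed under par-1 RNAi? PAR1 and CTR libraries were compared strain by strain in an edgeR model of all 45 libraries, and calls needed an adjusted p below 0.1 and a change of more than 1.5 times. All 25 calls of P450 genes over the 5 strains were rises. Falls of cyp-31A2 and cyp-31A3 passed the adjusted p in at least 1 strain but not the fold minimum. JU1088 had 16 of 73, or 21.9%, beside 8.5% of all genes called (7.86% rose, 0.64% fell). CB4856 had 4, or 5.48%, beside 4.4% of all genes (3.93% rose, 0.468% fell). EG4348 had 2, or 2.74%, beside 2.38% (2.13% rose, 0.253% fell), and QX1211 had 2, or 2.74%, beside 5.15% (4.54% rose, 0.608% fell). N2 had 1, or 1.37%, beside 1.16% (0.856% rose, 0.301% fell). The median log2 change over the 73 genes was 0.63 in JU1088, 0.22 in CB4856, 0.12 in QX1211, 0.09 in EG4348 and -0.09 in N2, where all genes had medians of 0.00 to 0.03. The summed intestine markers were above the controls without overlap in N2 (2896 to 3619 TPM, controls 1991 to 2376), JU1088 (2601 to 3051, controls 2083 to 2194) and EG4348 (2181 to 2294, controls 1789 to 1954), and overlapped in CB4856 and QX1211. Their part in the P450 rises was not tested. The par-1 and pos-1 comparisons share the control libraries of their strain.

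cyp-14A5 was the gene called most often, with a call in each strain but QX1211. This gene (WBGene00000373, chromosome V, 5421018 to 5423282) had 53.6, 36.5 and 40.0 in the JU1088 controls and 149, 141 and 209.8 under par-1 RNAi, a log2 change of 1.95 ± 0.27 (adjusted p = 7.88e-06). CB4856 went from 56.7, 42.9 and 79.3 to 141.6, 156 and 186, or 1.45 ± 0.24 (adjusted p = 2.45e-04). In both strains the groups did not overlap, and the call held without each library in turn.

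In EG4348 the libraries went from 61.2, 69.3 and 99.5 to 176.4, 153 and 129.7, or 1.03 ± 0.24 (adjusted p = 0.0145), a call that was lost without EG4348 CTR replicate 1 (adjusted p = 0.151). N2 had 61.4, 67.9 and 57.1 and 116, 165 and 84.3, or 0.97 ± 0.25 (adjusted p = 0.0364), and the call was lost without N2 CTR replicate 1, N2 CTR replicate 3 or N2 PAR1 replicate 2 (adjusted p of up to 0.364). QX1211, which was not called, had 79.3, 84.3 and 94.95 and 116, 126 and 153, or 0.60 ± 0.24 (adjusted p = 0.158). The 3 treated libraries lay above the 3 controls in all 5 strains, which was so for 1.12% of 11253 genes with a mean of 10 or more, and for no other of the 48 P450 genes at that level. The strains' responses were not shown to differ (interaction, adjusted p = 0.332).

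Besides cyp-14A5, the calls outside JU1088 were those of cyp-33C8, cyp-34A8, cyp-13A1, cyp-42A1 and cyp-29A2. cyp-33C8 rose in EG4348, from 8.39, 8.45 and 14.8 to 26.0, 37.2 and 36.7, or 1.70 ± 0.34 (adjusted p = 0.00302), and in CB4856, from 24.7, 24.2 and 25.7 to 56.7, 46.8 and 55.2, or 1.09 ± 0.29 (adjusted p = 0.0284). The EG4348 call held without each library, and the CB4856 call was lost without CB4856 CTR replicate 1 or PAR1 replicate 1.

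In CB4856, cyp-34A8 rose from its already high control level, 452, 337 and 393, to 608, 503 and 751, or 0.66 ± 0.18 (adjusted p = 0.0301), a call that 3 left-out libraries (CB4856 CTR replicates 2 and 3 and PAR1 replicate 3) and 3 other methods took away. cyp-13A1 rose there from 3.00, 3.49 and 2.01 to 14.9, 17.1 and 8.83, or 2.16 ± 0.61 (adjusted p = 0.0372), and lost its call without any of 4 libraries (CB4856 CTR replicates 1 and 3, PAR1 replicates 1 and 2).

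QX1211 had another pair of genes. cyp-42A1 (chromosome V, 18912036 to 18918117) went from 16.8, 35.6 and 28.0 to 73.5, 59.9 and 83.8, or 1.49 ± 0.33 (adjusted p = 0.00489), and held without each library. cyp-29A2 went from 152, 95.8 and 122 to 259, 188 and 213, or 0.79 ± 0.20 (adjusted p = 0.0164), and lost its call without QX1211 CTR replicate 2 or PAR1 replicate 1. Neither group overlapped. The 4 larval cuticle markers (col-49, dpy-7, bli-1 and col-38) summed to 14.8 to 16.6 TPM in the QX1211 PAR1 libraries and 1.96 to 3.22 TPM in the QX1211 controls, and their part in these rises was not tested.

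**Figure D3:**
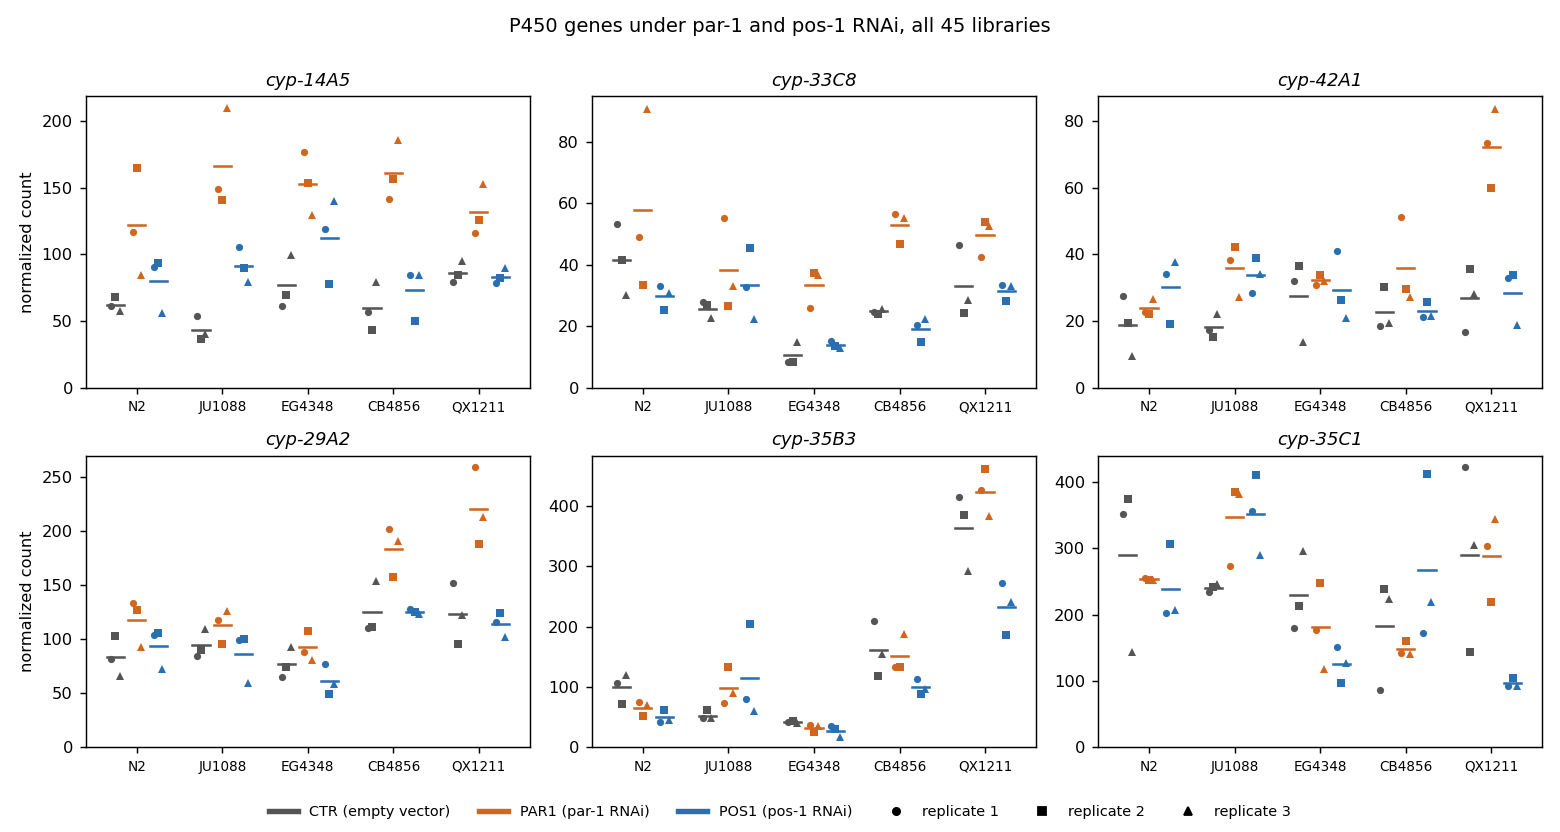
Normalized counts of 6 P450 genes in all 45 libraries, by strain (x axis) and treatment (colour), with a symbol for each replicate number and a bar for the mean of 3, on linear axes from 0. In cyp-14A5, the 3 par-1 RNAi libraries lie above the 3 controls in each of the 5 strains, and in cyp-35C1 the pos-1 RNAi libraries of QX1211 lie below its controls.

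Some smaller changes recurred across strains, most without reaching the call. cyp-14A2 had all par-1 RNAi libraries above the controls in 4 strains and a log2 change of 0.12 to 0.98 over the 5, with a call in JU1088. cyp-25A1 was above in 3 strains and changed by 0.64 to 0.91, with adjusted p-values of 0.124 or more. The eggshell gene cyp-31A3 lay below its controls in 4 strains, as did 2.56% of all genes, and cyp-31A2 in 3, as did 5.71%. Their log2 changes were -0.43 to -0.14 and -0.39 to -0.20, under the fold of 1.5 that a call needs. Their adjusted p-values were 0.00183 to 0.599 and 0.0287 to 0.574, so at the lowest p only the fold minimum prevented a call. Of the 48 P450 genes, 12 lay above the controls in 2 strains (25%, beside 9.67% of all genes at that level) and 6 in 3 strains (12.5%, beside 6.86%), 1 each in 4 (2.08%, beside 3.82%) and 5 strains, while 19 did so in none (39.6%, beside 61.5%). Below the controls lay 1 gene in 2 strains (2.08%, beside 9.66%), 3 in 3 (6.25%, beside 5.71%) and 1 in 4 (2.08%, beside 2.56%).

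JU1088 under par-1 RNAi had the longest list. Of its 16 calls, 3 held without each library and with each other method: those of cyp-14A5, cyp-13B1 and cyp-25A3. cyp-13B1 went from 2.05, 0 and 1.12 to 21.6, 21.8 and 11.3, or 4.10 ± 0.97 (adjusted p = 0.00504). cyp-25A3 went from 58.2, 53.2 and 57.4 to 104, 114 and 90.1, or 0.88 ± 0.24 (adjusted p = 0.0129), and neither gene's groups overlapped. In all 3 genes the JU1088 control mean was the lowest of the 5 strains. For cyp-25A3, the JU1088 mean under par-1 RNAi was 103, and the N2 control mean was 105. Without JU1088 CTR replicate 1, 2 or 3 the count was 10, 7 or 8, beside 5.8, 6.24 or 5.98% of all genes. Without JU1088 PAR1 replicate 2, 3 of the 73 genes were called, beside 3.3% of all genes. In that library, cyp-37B1 had 172 where the other 2 had 8.27 and 11.4 and the controls 0, 4.44 and 2.24, and cyp-35B1 had 1019 beside 292 and 344, with controls of 217, 239 and 198. cyp-35A4 went from 8.02, 16.9 and 14.3 to 46.6, 90.1 and 52.3, all 3 above the controls, and lost its call without that library (adjusted p = 0.109).

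pos-1 RNAi called P450 genes almost only in JU1088. There 26 of 73 were called, 22 up and 4 down, or 35.6%, beside 8.23% of all genes (5.3% rose, 2.94% fell), and the median log2 change was 0.75 over the 73 and 0.03 over all genes. QX1211 had 1 call, a fall, or 1.37%, beside 0.0807% of all genes. N2 had 0 of 73 by edgeR, beside 0.215% of all genes (0.0969% rose, 0.118% fell). EG4348 had 0, beside 0.0646% (0.0215% rose, 0.0431% fell), and CB4856 had 0, beside 0.156% (0.0592% rose, 0.0969% fell), and DESeq2 called 0 in all 3. At an unadjusted p under 0.05, 6 P450 genes passed in N2, 6 in EG4348 and 7 in CB4856 by edgeR. The share of all genes at that threshold was not computed, so these counts show no response of the P450 genes.

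The JU1088 count rested on 1 library. Without JU1088 POS1 replicate 2, which was the deepest library of the series, 2 of the 73 genes were called, beside 1.31% of all genes. Without JU1088 CTR replicate 2 or 3 the count was 17 or 16, beside 5.16 or 4.75%. Without POS1 replicate 1 it was 33, beside 12.2%. POS1 replicate 2 had 1412 for cyp-13A7, where the other 2 POS1 libraries had 2.20 and 196 and the controls 0, 4.47 and 2.29. cyp-34A9, a known target of DAF-16 signalling, had 84.7, 1311 and 366 under pos-1 RNAi and 109, 34.7 and 33.4 in the controls. cyp-13A5 had 17.9, 350.2 and 114 and 16.0, 5.98 and 12.5, a log2 change of 3.88 ± 0.92 (adjusted p = 0.00847), which was 2.57 without replicate 2 (adjusted p = 0.2).

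Replicate 3 lay between the other 2 in these genes, and replicate 1 lay nearest to the controls. The summed level of the 73 genes was 1731 TPM in replicate 2, 999 TPM in replicate 3 and 838 TPM in replicate 1, against 734 to 763 TPM in the controls. Replicate 2 is also 1 of 3 libraries that carry the same fragment length in the labels, with QX1211 CTR replicate 1 and CB4856 PAR1 replicate 3, and without all 3 the count was 2 as well, beside 1.27% of all genes. In replicate 2 the adult yolk and cuticle markers summed to 13916 TPM, where the other 2 had 19967 and 21481 TPM, and the part of depth, fragment length and these markers in the rises was not tested.

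**Figure D4:**
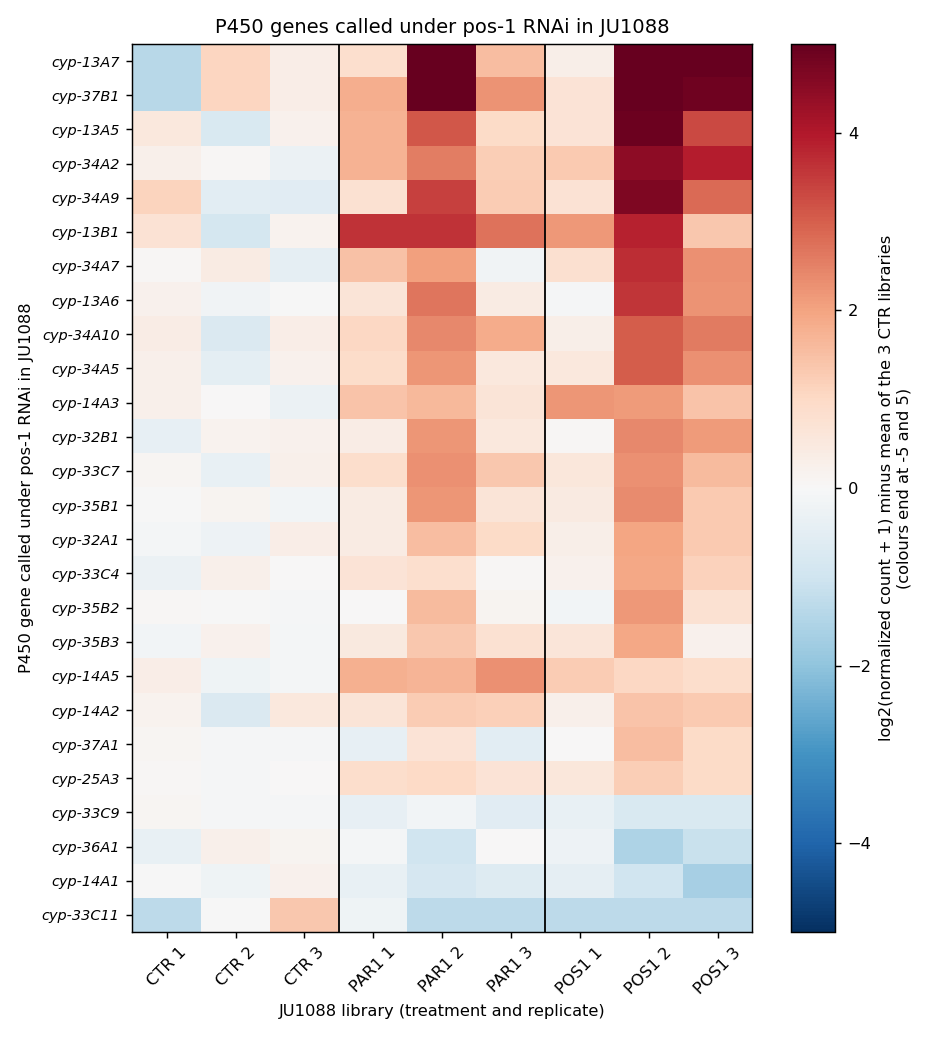
The 26 P450 genes called under pos-1 RNAi in JU1088 (rows) in the 9 JU1088 libraries (columns), coloured by log2(normalized count + 1) minus the mean of the 3 controls, with the colour scale ending at -5 and 5. The column of POS1 replicate 2 is the darkest for most rows, replicate 3 is paler, and replicate 1 is mostly close to the controls, while PAR1 replicate 2 is also red in many rows.

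The 2 calls that held without each library were cyp-14A5 and cyp-34A2. cyp-14A5 had 105, 89.7 and 79.3 under pos-1 RNAi, all above the controls given above, a log2 change of 1.11 ± 0.27 (adjusted p = 0.00996). cyp-34A2 had 40.8, 376 and 259, against 19.1, 16.5 and 12.9 in the controls, or 3.87 ± 0.86 (adjusted p = 0.00568). Among the 4 falls, cyp-33C9 went from 128, 115 and 115 to 91.7, 69.3 and 69.7, or -0.62 ± 0.15 (adjusted p = 0.00884), and cyp-14A1 from 39.5, 34.3 and 47.0 to 28.8, 19.7 and 12.1, or -1.01 ± 0.28 (adjusted p = 0.0255). In both genes the groups did not overlap, and the calls were lost without POS1 replicate 2, POS1 replicate 3 or a control (replicate 1 for cyp-33C9, replicate 3 for cyp-14A1). cyp-36A1 fell from 40.8, 64.8 and 58.8 to 44.6, 18.0 and 24.2, or -0.98 ± 0.33 (adjusted p = 0.0715), with overlapping groups, and lost its call without any of 4 libraries (CTR replicates 2 and 3, POS1 replicates 2 and 3). The fourth, cyp-33C11, had control libraries of 0, 1.46 and 5.33 and 0 in all POS1 libraries.

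cyp-35C1 gave the call of QX1211 under pos-1 RNAi. Its libraries went from 423, 144 and 305 to 92.2, 105 and 92.8, a log2 change of -1.63 ± 0.36 (adjusted p = 0.0869), and the treated libraries lay below the controls. Leaving out any of 5 of the 6 libraries (all but QX1211 CTR replicate 2) ended the call. In EG4348 the libraries went from 180.4, 213 and 295 to 152, 96.7 and 127, or -0.84 ± 0.35 (adjusted p = 0.792), and in JU1088 from 234, 241 and 247 to 356, 410.5 and 290.1, or 0.57 ± 0.34 (adjusted p = 0.371).

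cyp-35B3 and cyp-33C9 lay below their controls under pos-1 RNAi in 4 of 5 strains, which held for 0.213% of all genes with a mean of 10 or more. For cyp-35B3, N2 went from 107, 72.3 and 119.6 to 41.8, 61.8 and 45.0, or -1.01 ± 0.32 (adjusted p = 0.654). QX1211 went from 415, 385 and 292 to 272, 186 and 241, or -0.65 ± 0.28 (adjusted p = 0.971), CB4856 changed by -0.67 ± 0.29 (adjusted p = 1) and EG4348 by -0.61 ± 0.36 (adjusted p = 0.889). None of these 4 was called, and the exception was JU1088, at 79.9, 204 and 60.4 after 47.7, 61.3 and 48.6, whose rise rested on replicate 2.

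The test of the interaction asked whether the responses differed between strains. It called 3 of 73 P450 genes, or 4.11%, beside 1.29% of all genes: cyp-35C1 (adjusted p = 0.0689), cyp-35A4 (adjusted p = 0.086) and cyp-35B3 (adjusted p = 0.0931). All are cyp-35 genes on chromosome V. cyp-35A4 had log2 changes under par-1 RNAi of 2.23 ± 0.58 in JU1088 and -2.25 ± 0.88 in CB4856, and under pos-1 RNAi of 1.12 ± 0.58 in JU1088 and -3.10 ± 0.98 in QX1211 (SE). No interaction call held without each of the 45 libraries in turn. The count ran from 0 without CB4856 PAR1 replicate 1 (0.955% of all genes) to 15 without JU1088 POS1 replicate 1 (4.65%).

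Single libraries stood apart for the same few genes in several groups. Of the 48 P450 genes with a mean of 10 or more, 12 (25%) were more than 2 times above both other replicates in N2 CTR replicate 1, beside 4.19% of all genes at that level. The counts were 10 (20.8%, beside 2.76%) in CB4856 POS1 replicate 2, 9 (18.8%, beside 3.47%) in JU1088 PAR1 replicate 2, 7 (14.6%, beside 2.22%) in JU1088 POS1 replicate 2, 6 (12.5%, beside 1.33%) in QX1211 CTR replicate 1 and 5 (10.4%, beside 2.35%) in N2 PAR1 replicate 3. The other 39 libraries had 0 to 3. Libraries stood apart downward too. More than 2 times below both other replicates were 11 genes (22.9%, beside 3.25%) in JU1088 POS1 replicate 1 and 10 (20.8%, beside 2.18%) in N2 CTR replicate 3. There were 8 in N2 POS1 replicate 2 (16.7%, beside 2.73%) and 8 in CB4856 CTR replicate 1 (16.7%, beside 1.62%). No other library had more than 6 below.

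The genes involved recurred. cyp-13A7 stood above both other replicates in 8 libraries, cyp-13A5, cyp-14A3 and cyp-34A9 in 6 each, and cyp-34A2 and cyp-37B1 in 5 each. Some of these cases lay at a few counts. The group means of cyp-13A7 were 4.55 in N2 PAR1 and 4.36 in QX1211 POS1. Those of cyp-14A3 were 4.61, 5.41 and 4.88 in EG4348 CTR, PAR1 and POS1. With a median of 4.39 over the 45 libraries, cyp-13A7 reached the mean of 10 only through its high libraries, up to 1412. In N2 the control libraries of cyp-13A7 were 252, 6.51 and 0 and those of cyp-34A9 313, 60.4 and 24.4. In CB4856 under pos-1 RNAi, cyp-34A9 had 64.7, 304 and 89.1 and cyp-37B1 42.3, 116 and 49.3.

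In cyp-37B1, the order of strains therefore turned on which N2 library was read: N2 had 90.6, 6.28 and 2.83, JU1088 0, 4.44 and 2.24, EG4348 31.7, 35.1 and 37.4, CB4856 30.2, 62.1 and 51.7 and QX1211 33.5, 3.82 and 13.7 (adjusted p = 0.0961). The call was lost without 11 of the 15 control libraries in turn. EG4348 was the strain whose replicates were closest for this gene. In each of the 6 libraries named for genes above both other replicates, the summed level of flavin monooxygenases and epoxide hydrolases was the highest of the 3 replicates. It ran from 55.6 TPM in N2 PAR1 replicate 3, where the other 2 had 55.1 and 51.5 TPM, to 160 TPM in JU1088 PAR1 replicate 2, where they had 67.8 and 54.2 TPM. The intestine markers were highest of the 3 in 4 of the 6, and in JU1088 POS1 replicate 2 they were lowest, at 1874 TPM beside 2096 and 2319 TPM. The part of these genes in the P450 values was not tested.

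**Figure D5:**
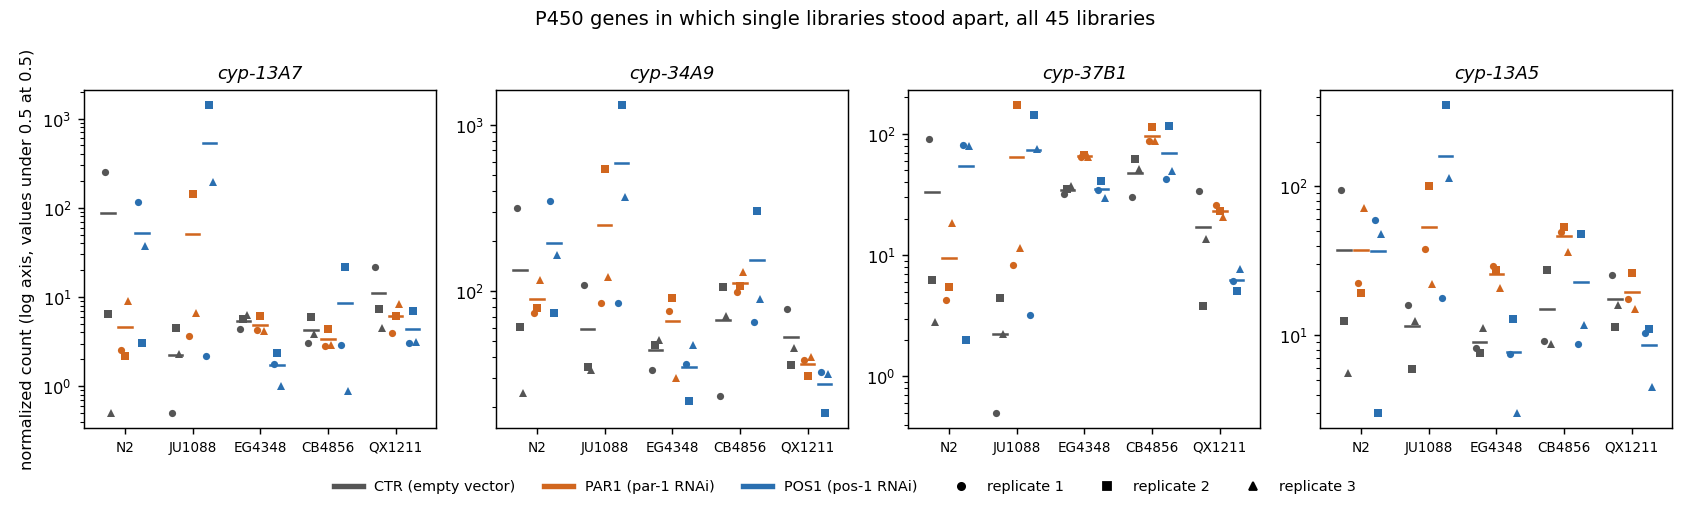
Normalized counts of cyp-13A7, cyp-34A9, cyp-37B1 and cyp-13A5 in all 45 libraries on log axes, with values under 0.5 drawn at 0.5, by strain (x axis) and treatment (colour), with a symbol for each replicate number and a bar for the mean of 3. N2 CTR replicate 1 and JU1088 PAR1 replicate 2 lie more than 2 times above their replicates in each panel, and JU1088 POS1 replicate 2 in all but that of cyp-37B1.

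Lists of genes that work with P450s were read beside them. Of the 3 redox partners, cytb-5.1 was called between strains and none under RNAi, with a summed level of 196 to 302 TPM. Of 7 measured genes of the dafachronic acid pathway, dhs-16 and strm-1 were called between strains, and ncr-1, a sterol transporter, rose under par-1 RNAi in N2 and CB4856. Of 11 regulators of P450 genes, egl-9, skn-1, mdt-15 and nhr-176 were called between strains and none in the 10 RNAi comparisons. Of 7 flavin monooxygenases and epoxide hydrolases, which also act on foreign chemicals and on P450 products, 6 were called between strains, 3 rose in JU1088 under par-1 RNAi (fmo-1, fmo-2 and ceeh-1), and 4 rose and 1 fell in JU1088 under pos-1 RNAi. The shares of all genes called in these tests were 35.1, 8.5 and 8.23%, the last of which was 1.31% without JU1088 POS1 replicate 2. ceeh-1 also rose in EG4348 and CB4856 under par-1 RNAi.

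By subfamily, the calls were uneven. All 3 genes each of cyp-29A, cyp-31A and cyp-35B were called between strains, 4 of 5 in cyp-14A and in cyp-35A, 4 of 7 tested in cyp-34A and 4 of 10 tested in cyp-33C. Of cyp-13A, with cyp-33C the largest subfamily at 11 genes, 1 of 10 tested was called, and of cyp-25A none of 4. Most cyp-13A genes had a mean under 10 normalized counts, and the 1 call, that of cyp-13A7, was lost without N2 CTR replicate 1. In cyp-14A and cyp-35A, only the calls of cyp-14A1 and cyp-35A5 held without each library in turn, and in cyp-29A that of cyp-29A2 did not. Over all genes tested, 35.1% were called between strains.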

How the data were processed

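RNA of 45 libraries (5 strains, 3 treatments, 3 replicates) was quantified by the authors, who per the submitters' processing notes used Trimmomatic 0.3.9, Salmon 1.4.0 and DESeq2 1.32.0. The authors built a Salmon index per strain from N2 transcripts carrying that strain's variants, used the strand of the reads, kept duplicate transcripts, and deposited estimated counts and TPM per transcript. The deposited table of normalized counts, a depth-scaled signal per gene, was made by the authors with DESeq2 and also corrects for transcript length. Levels in the text are from that table, summed levels in TPM from the transcript files.

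For the tests, estimated counts were summed per gene (18580 of 18589 genes matched), rounded, and fitted in edgeR 4.0.16 (R 4.3.3) with length offsets, TMM scaling and the quasi-likelihood F test, on genes with 10 or more reads in all. Library totals were 4268881 to 17864647 reads, and intervals and floors cover counting error only. P-values were adjusted by Benjamini-Hochberg over all genes tested. Calls needed an adjusted p below 0.1, under RNAi also a fold above 1.5. Positions are from the Ensembl annotation of WBcel235. P450 genes were named by their smallest p between strains, their largest separated changes, their number of calls, their interaction p or a known role, and others are said to be chosen after their values were seen. cyp-33C8, cyp-13A1, cyp-34A2, cyp-13A7 and the genes that recur or have 0 reads in a strain were also chosen that way. The members and lists (redox partners, dafachronic acid pathway, regulators, flavin monooxygenases and epoxide hydrolases, cell type markers) were chosen with earlier results of these data known. The strain test, a single pair, part of the RNAi comparisons and the interaction were tried on simulated counts. Those counts had a fixed spread and changes in well-expressed genes only, so the trial does not cover genes with few reads or libraries that stand apart. Alternatives were RLE scaling, no length offsets, filterByExpr, DESeq2 1.42.0 with and without ashr 2.2.63, a replicate block, and leaving out libraries. Where libraries were left out in turn, the dispersion trend (spread by level) of the full fit was kept. The library left out had therefore entered that trend. A gene that a method did not test was judged on the other methods. Same-numbered libraries deviated together, with every correlation above 0.1, in QX1211 against N2 controls (0.116 to 0.296) and in CB4856 CTR against POS1 (0.132 to 0.272), where the block changed the calls of the former and left the latter at 0.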

Additional observations from a re-analysis of the deposited data

Results flagged for a closer look

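The response to RNAi differed between strains, by the test of the interaction itself, for 3 P450 genes (edgeR, adjusted over all genes): cyp-35C1 at an adjusted p of 0.0689, cyp-35A4 at 0.0860 and cyp-35B3 at 0.0931. cyp-35C1 was lower in all pos-1 RNAi libraries than in the controls of QX1211, and cyp-35A4 was higher in all par-1 RNAi libraries than in the controls of JU1088. cyp-35B3 was lower in all pos-1 RNAi libraries than in the controls of 4 strains and higher on average in JU1088. The calls were lost without 10, 24 and 27 of the 45 libraries in turn, in that order. Without the 3 libraries of shared fragment length those of cyp-35C1 (adjusted p = 0.176) and cyp-35B3 (adjusted p = 0.186) were lost, and with a replicate block that of cyp-35B3 (adjusted p = 0.127), which left 2. DESeq2 called 10 P450 genes in this test, beside 4.53% of all genes. In edgeR 23 passed an unadjusted p of 0.05, a threshold at which the share of all genes was not computed.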

How the results depend on the processing

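The number of P450 genes called moved as follows, and percentages are shares of all genes called. In the interaction it was 3 (1.29%), against 1 without the 3 libraries of shared fragment length (0.604%) and 10 with DESeq2 (4.53%). Without single libraries it was 0 to 15 (0.561 to 4.65%). Under par-1 RNAi, N2 had 1 (1.16%), against 2 with RLE scaling (1.19%), filterByExpr (2.06%), a replicate block (1.05%) or without the 3 libraries (1.38%). It had 3 with DESeq2 (1.52%). CB4856 had 4 (4.4%), against 2 with ashr shrinkage (2.49%). QX1211 had 2 (5.15%), against 7 without length offsets (6.22%) and 4 without the fold minimum, whose share is not given. Under pos-1 RNAi without the 3 libraries, N2 went from 0 (0.215%) to 1 (0.239%) and JU1088 from 26 (8.23%) to 2 (1.27%). QX1211 went from 1 (0.0807%) to 0 (0.0272%), and also to 0 without length offsets (0.0807%). Between controls, JU1088 against N2 went from 9 (4.68%) to 5 (4.15%) with a replicate block. QX1211 against JU1088 went from 17 (21%) to 11 (16.8%) without the 3 libraries. Leaving out 1 library in turn gave 24 to 40 calls by strain (28.8 to 36.9%). By pair it gave 0 to 8 for JU1088 against N2 (0 without JU1088 CTR replicate 3, beside 2.71%). EG4348 against N2 had 11 to 25 (11 without EG4348 CTR replicate 1, beside 7.57%). CB4856 against N2 had 6 to 14 (14 without N2 CTR replicate 3, beside 10.1%). EG4348 against JU1088 had 5 to 10 (5 without JU1088 CTR replicate 2, beside 5.02%). QX1211 against JU1088 had 11 to 18 (11 without JU1088 CTR replicate 3, beside 15.3%). CB4856 against EG4348 had 8 to 13 (8 without EG4348 CTR replicate 1, beside 7.87%). Under par-1 RNAi it gave 0 to 2 in N2 (0.717 to 1.18%), 3 to 18 in JU1088 (3.3 to 9%) and 1 to 2 in EG4348 (1.13 to 2.41%). It gave 2 to 3 in CB4856 (2.02 to 3.82%) and 1 to 2 in QX1211 (2.7 to 5.28%). Under pos-1 RNAi it gave 2 to 33 in JU1088 (1.31 to 12.2%) and 0 to 2 in QX1211 (0.0216 to 0.0808%). The log2 difference of cyp-13A7 from N2 ran from -4.54 to 0.64 in EG4348 and from -4.81 to 0.39 in CB4856, above 0 without N2 CTR replicate 1 alone. With a gene counted as off in a strain at fewer than 10 reads in place of 0, 11 genes were off in place of 5. The shares of all genes were not computed, and cyp-33C1 had fewer than 10 reads in each of the 5 strains. The cause of these moves was not tested.

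Replicate numbers were not used to pair libraries: within strains 16 of 45 correlations of same-numbered libraries were above 0.1 (median 0.0735), and between controls of 2 strains 7 of 30. With the replicate block the interaction had 2 calls, beside 1.12% of all genes. JU1088 had 15 calls under par-1 RNAi (beside 8.15%) and 27 under pos-1 RNAi (beside 7.88%). Summing genes with near-identical proteins was planned and not run. With 3 libraries a group, depths that differ several-fold and genes under 10 normalized counts, a missing call does not show that a gene did not change.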
